A study of Mus musculus with 6 samples.

Results

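Fibre type transcription regulators are the nuclear proteins that set which contractile and metabolic genes a muscle fibre uses. The 9 regulators described here are Six4, Eya1, Sox6, Prox1, Tbx15, Nfatc1, Vgll2, Mef2c and Mef2d, chosen by name. All 9 were among the 14617 genes of the authors' deposited table, and all 9 passed the filter on low values used below. They were measured by RNA sequencing in the tibialis anterior, a fast muscle of the lower leg, of C57BL/6 mice aged 8 months. The KO mice carried PRMT7-/-, the null genotype of the gene for protein arginine methyltransferase 7, which adds methyl groups to arginines in histones and other proteins. The WT mice carried PRMT7+/+. The labels give 3 mice of each genotype, and they state neither sex nor how the allele was made.

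The deposited table gives a mean normalized read count per genotype. Whole counts of exactly 2 libraries per genotype were recovered from those means. These are called KO library 1 and 2 and WT library 1 and 2, and they carry no mouse number. No column header names a genotype: the second column of means was taken as KO and the first as WT because the table's name puts WT before KO, and every direction below depends on that reading.

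A limb muscle mixes slow fibres, which resist fatigue and rely on mitochondria, with fast fibres, which contract quickly and rely more on glycolysis. In mice Six4 and its EYA coactivators help to switch on fast genes, and Sox6 and Tbx15 also favour the fast programme, Sox6 by repressing slow genes. Prox1, the calcineurin-responsive factor Nfatc1 and the MEF2 proteins favour slow or oxidative genes. Vgll2 is a muscle cofactor of the TEAD DNA-binding proteins and has no DNA-binding domain of its own.

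The sequence before the start of Vgll2 is shown because it was the only regulator of the 9 that passed the authors' threshold, and that upstream of a start of Six4 because it holds a match to the site that Six4 binds. Both are from RefSeq (GRCm38.p6), 5′ to 3′ on the gene's strand. The RefSeq start of Vgll2 used here is 52022502, upstream of 52022686, where the authors' deposited table begins the gene. In Vgll2 the capitals mark an E-box, a site class of basic helix-loop-helix factors (CANNTG, beginning 246 bases before the start), and an NFAT core (GGAAAA, beginning 78 bases before it). In Six4 they mark the letters of a MEF3 site on the opposite strand (TCAGGTT, beginning 97 bases before the start at 73113245, which lies downstream of the other annotated start).
Vgll2, chr10:52022252-52022501, plus strand: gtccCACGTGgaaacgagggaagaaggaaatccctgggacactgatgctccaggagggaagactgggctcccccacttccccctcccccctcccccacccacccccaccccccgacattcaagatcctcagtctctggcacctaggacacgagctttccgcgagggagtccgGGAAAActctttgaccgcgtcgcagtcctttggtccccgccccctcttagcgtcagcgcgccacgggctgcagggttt
Six4, chr12:73113324-73113353, minus strand: ggcctgggggaAACCTGAtcggccagatcc

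RefSeq windows of 300 bases, 250 before to 50 after a start, were at hand for 6 of the 9 regulators (Six4, Sox6, Prox1, Vgll2, Mef2c and Mef2d), 15 windows in all. Exact letters were searched on both strands. The NFAT core lay in 8 of the 15 windows, at least 1 for each of the 6 genes, and in 23.4% of all 32851 windows. The E-box lay in 10 of the 15 windows, from 4 of the 6 genes (Vgll2, Sox6, Prox1 and Mef2c), and in 72.3% of all windows. MEF3 lay in 3 of the 15 windows, from Six4, Sox6 and Mef2c, against 4.07% of all windows. MCAT, the TEAD site (CATTCC), lay in 3 of the 15 windows, from Sox6 and Mef2c, against 14.7%. The SOX core (AACAAT, 10.7% of all windows), the T-box core (GGTGTGA, 3.98%) and the MEF2 consensus (3.19%) each lay in 1 of the 15 windows. In each case it was a window of Sox6, a gene with 6 of the 15 windows. A gene with more windows has more chances of a match, and a match is a run of letters, not shown binding.

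The comparison asks which of these regulators differ in transcript level when Prmt7 is lacking. Vgll2 was lower in KO, and no other regulator of the 9 passed the authors' FDR of 0.05. That is 1 of 9, beside 2.71% of all 14617 genes called in either direction, 1.7% called lower in KO and 1.01% called higher, and 1 call among 9 genes says little about the group. Of the 9 log2 ratios in the authors' deposited table, 6 were below 0 and 3 above, with a median of -0.11, against 0.01 for all genes. In a limma fit on the recovered libraries 0 of 9 regulators had an adjusted p under 0.05, beside 0.889% of 14053 genes. At an unadjusted p under 0.05 the limma fit picked 3 (Vgll2, Mef2d and Six4), where it picked 19.6% of all genes, and the authors' p-value picked Vgll2 and Mef2d, where it picked 11.1%.

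**Figure D1:**
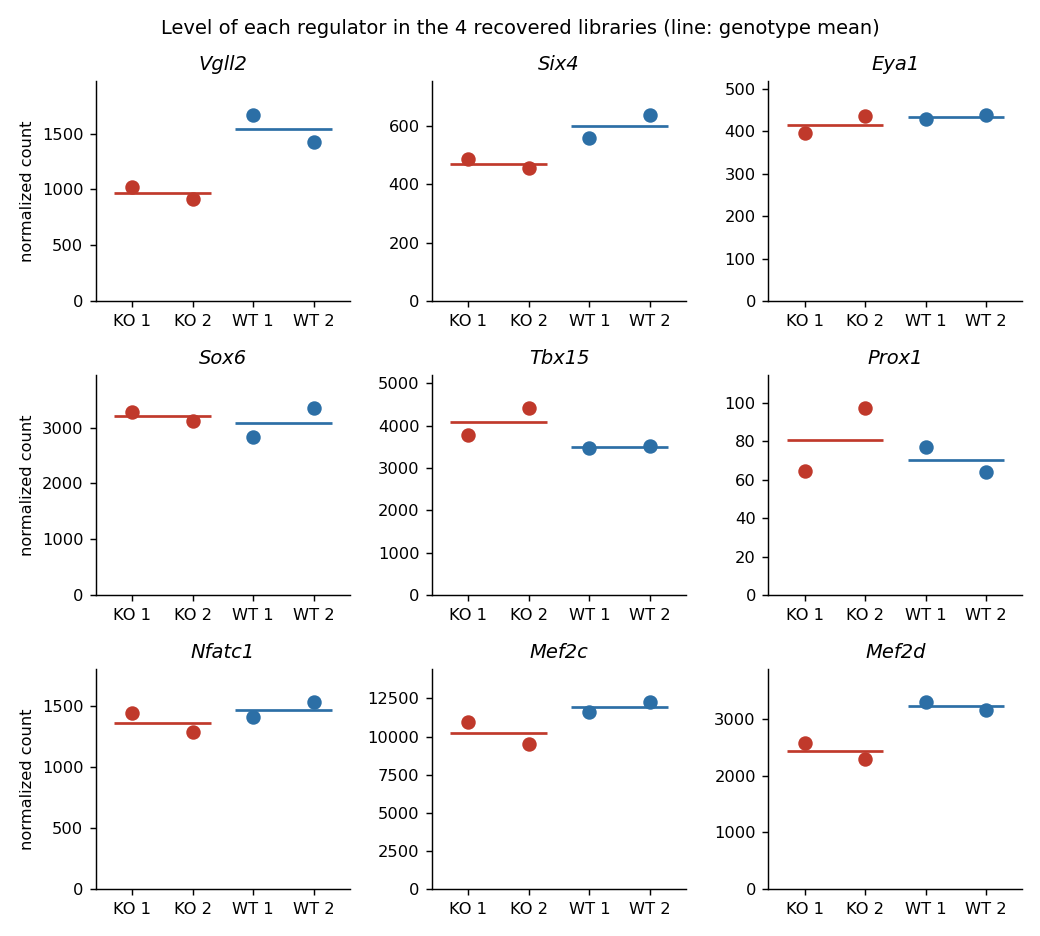
Normalized read counts (y axis, from 0) of the 9 regulators in KO libraries 1 and 2 (red, left) and WT libraries 1 and 2 (blue, right), with a line at each genotype's mean. Both KO points lie below both WT points for Vgll2, Six4, Mef2c and Mef2d, and above them for Tbx15.

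Library totals ran from 22629288 to 24814798 counts. Genes of muscle fibres (Acta1, Ckm, Mylpf, Tnnt3, Myh4, Ttn and Des) were all abundant, as the labelled tissue should show. The transcript of Prmt7 had 706 and 718 normalized counts in the KO libraries, against 885 and 844 in the WT libraries (FDR 0.587 in the authors' deposited table). The deleted part of Prmt7 is not given in the labels, so this neither checks the knockout nor settles the order of the columns. Xist, the RNA that silences an X chromosome in female cells, had 1.82 and 1.03 normalized counts in the KO libraries and 10800 and 11546 in the WT libraries. Sex and genotype therefore cannot be told apart in any comparison of KO with WT given here. Markers of Schwann cells summed to 17394 and 7976 in KO against 5475 and 5895 in WT, those of adipocytes to 6442 and 1517 against 1701 and 1769, those of tendon to 10426 and 8450 against 7006 and 6690, and those of smooth muscle and pericytes to 22271 and 22739 against 24811 and 25897. Bone markers summed to 1384 and 1323 in KO and 899 and 1610 in WT. KO library 1 was thus the highest in nerve and fat transcripts, and the part of these cells in the results below was not tested. In bulk muscle, fewer cells of a type and less RNA per cell cannot be told apart either.

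Vgll2 (mm10 chromosome 10, 52022686 to 52028471) reached 1022 and 919 normalized counts in the KO libraries, against 1670 and 1421 in the WT libraries. Each KO library was below each WT library, and the gap between the genotypes was wider than the gap within either. Vgll2 fell to a mean of 971 ± 73.2 in KO, against 1545 ± 176 in WT (SD, n = 2 each), a level 1.59-fold lower in KO. The FDR in the authors' deposited table was 0.00284, at a log2 ratio of -0.67. In limma the log2 difference was -0.67 ± 0.117 (SE), with a 95% interval of -0.94 to -0.39, and its adjusted p of 0.0547 missed the threshold. It was 0.0456 without KO library 1 and 0.210 without WT library 1, at log2 differences of -0.74 and -0.55. WT library 1, the highest for Vgll2, was also the highest for Myh2, a fast oxidative myosin heavy chain, which had 11272 and 7952 normalized counts in KO against 109972 and 31555 in WT. The part of that library's fibre makeup in the Vgll2 difference was not tested. The relatives Vgll3 and Vgll4 overlapped between the genotypes, with Vgll3 at 216 and 277 in KO against 230 and 165 in WT, and Vgll4 at 317 and 243 against 251 and 276. Per kb of exon, Vgll2 made up 87.4% and 86.9% of the summed level of these 3 genes in KO and 92.8% and 92.0% in WT.

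Of the other cofactors and partners of Vgll2 fixed as a list (3 relatives, the 4 TEAD genes, Yap1 and Wwtr1), 8 of 9 were measured, and 0 rose and 0 fell by the authors' FDR. Tead1, the most abundant TEAD gene in these libraries by count, had 5018 and 4584 normalized counts in KO against 5851 and 4984 in WT (FDR 0.788). Limma called 0 of the 8 as well, beside 0.889% of all genes, where the authors called 2.71%. At an unadjusted p under 0.05 both tests picked 0, beside 11.1% of all genes for the authors' test and 19.6% for limma.

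**Figure D2:**
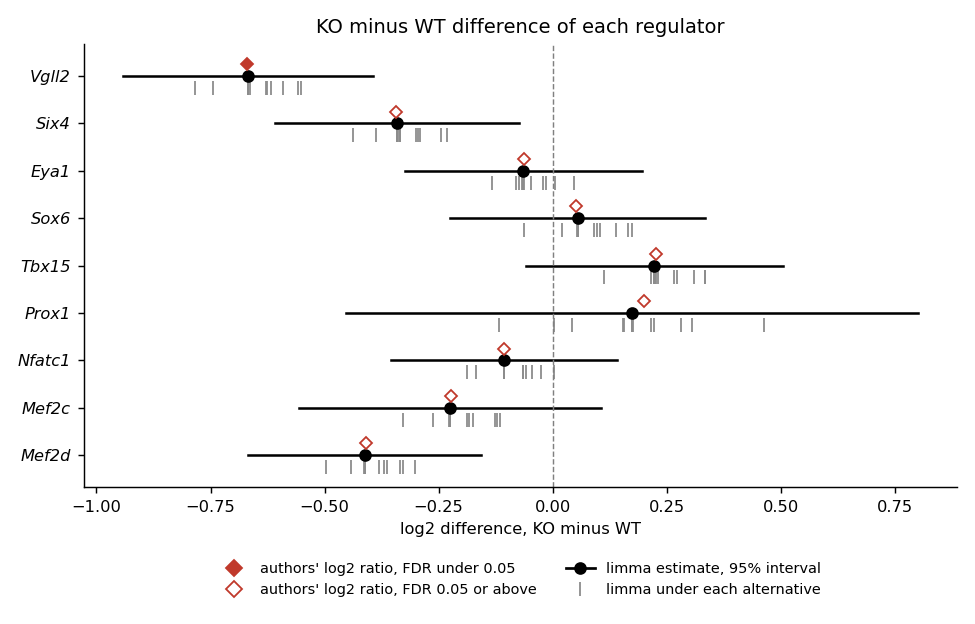
Log2 difference between KO and WT (x axis) for the 9 regulators: the authors' ratio (diamonds, filled where the FDR is under 0.05), the limma estimate with its 95% interval (black) and the limma estimates under each alternative (grey ticks). Vgll2 has the only filled diamond; the intervals of Vgll2, Six4 and Mef2d lie below 0 before adjustment over all genes.

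The homeodomain protein Six4 (chromosome 12, 73100259 to 73113245) had 486 and 456 normalized counts in KO, against 558 and 638 in WT. Both KO libraries were below both WT libraries, but the difference passed neither test, at an FDR of 0.507 and a log2 ratio of -0.34 in the authors' deposited table. In limma it was -0.34 ± 0.114 (SE; adjusted p = 0.174, 95% interval -0.61 to -0.07). Its coactivator Eya1, a phosphatase that Six4 brings to DNA (chromosome 1, 14168958 to 14310199), had 396 and 435 in KO and 429 and 439 in WT. The genotypes overlapped for Eya1, and the interval of its limma difference ran from -0.32 to 0.20. Removing the 20 most abundant genes from the library totals put the Eya1 difference at 0.05, on the other side of 0.

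Satellite cells, the stem cells of muscle, also use Six4 and Eya1. Their markers Pax7, Myf5, Cdh15, Calcr and Chrdl2 summed to 519 and 1112 normalized counts in KO and 1052 and 1091 in WT, so KO library 1 was low and KO library 2 was not. Pax7 itself had 52.7 and 212 in KO and 178 and 203 in WT. Six4 was higher in KO library 1 than in KO library 2, and Eya1 was lower there. The part of satellite cells in these values was not tested.

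Of 9 further genes of the EYA, sine oculis homeobox and DACH families, 7 were measured. By the authors' FDR 0 rose and 0 fell, beside 2.71% of all genes called, and limma called 0, beside 0.889%. At an unadjusted p under 0.05 each test picked 1 of the 7, beside 11.1% of all genes for the authors' test and 19.6% for limma. The lowest p-values belonged to Eya2, at 153 and 132 in KO against 89.8 and 95.7 in WT (log2 ratio 0.62, FDR 0.386), and to Dach1, at 696 and 770 against 587 and 670 (FDR 0.771). The genes Six2, Six5, Eya3 and Eya4 had log2 ratios of -0.32, 0.08, -0.11 and 0.21.

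Tbx15, a T-box factor of fast glycolytic fibres (chromosome 3, 99253760 to 99354260), was the only regulator of the 9 with both KO libraries above both WT libraries. It had 3773 and 4404 normalized counts in KO, against 3472 and 3513 in WT. Its WT libraries lay close together, and the KO libraries were further from each other than the lower of them was from WT. The log2 ratio of 0.23 in the authors' deposited table had an FDR of 0.647, and limma gave 0.22 ± 0.120 (SE; adjusted p = 0.356, 95% interval -0.06 to 0.50). Markers of fibro-adipogenic progenitors summed to 55405 and 46626 in KO against 43037 and 39676 in WT, 4 of 6 with a log2 ratio above 0. That sum was higher in both KO libraries than in both WT libraries, but it rests largely on Dcn. Dcn had 32155 and 27062 normalized counts in KO against 23089 and 22411 in WT. Cd34 and Dpt were also wholly higher in KO, Ly6a was wholly lower, and Pdgfra and Pi16 overlapped between the genotypes. The part of these progenitors in the Tbx15 level was not tested.

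Sox6, a repressor of slow fibre genes (chromosome 7, 115470872 to 116038744), had 3276 and 3122 normalized counts in KO, against 2835 and 3342 in WT. The WT libraries enclosed both KO libraries. Its limma difference was 0.05 ± 0.120 (SE), with an interval of -0.22 to 0.33, and it was -0.06 without WT library 1. The related genes Sox5, Sox13 and Tbx18 and the T-box gene Tbx1 belong to a list of 7 paralogs, of which 6 were measured. By the authors' FDR 0 rose or fell, beside 2.71% of all genes called, and limma called 0, beside 0.889%. At an unadjusted p under 0.05 each test picked 1 of the 6, beside 11.1% of all genes for the authors' test and 19.6% for limma. Tbx1 had the lowest p-value of that list, at 747 and 902 in KO against 1190 and 1071 in WT (log2 ratio -0.45, FDR 0.120). Tbx18 had 148 and 126 against 96.7 and 115 (FDR 0.757), and Sox5 and Sox13 had log2 ratios of -0.02 and -0.01.

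Prox1, a homeodomain factor of slow fibres (chromosome 1, 190121777 to 190170680), was the least abundant of the 9, with 64.5 and 96.9 normalized counts in KO against 76.8 and 63.8 in WT. These rest on 60 to 94 raw counts per library. The interval of its limma difference, -0.45 to 0.80, was the widest of the 9, and the estimate of 0.17 became -0.12 without KO library 2. Lymphatic endothelium also uses Prox1. Its 5 measured markers summed to 2087 and 1546 in KO and 1788 and 1645 in WT, with none at 0, and their part in the Prox1 level was not tested. GENCODE M21 places an antisense RNA over 1.59% of the exonic bases of Prox1, and whether the counting used strand is not stated.

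Nfatc1, which enters the nucleus when calcineurin is active (chromosome 18, 80606205 to 80713071), had 1439 and 1286 normalized counts in KO and 1404 and 1529 in WT. The genotypes overlapped, with a log2 ratio of -0.11 and a limma interval of -0.35 to 0.14. Nfatc2, Nfatc3 and Nfatc4 had log2 ratios of 0.04, -0.15 and 0.18. Nfatc1 held 49.0% and 48.2% of the summed level per kb of Nfatc1 to Nfatc4 in KO, and 48.2% and 51.9% in WT. Of 15 further genes of calcineurin and NFAT signalling, all measured, 0 rose and 0 fell by the authors' FDR, beside 2.71% of all genes called. Limma called 0 of the 15, beside 0.889%. At an unadjusted p under 0.05 the authors' test picked 3 of the 15, beside 11.1% of all genes, and limma 4, beside 19.6%. The lowest p-values there were those of the calcineurin subunit Ppp3cc, at 357 and 411 in KO against 566 and 517 in WT (FDR 0.169), and Nfat5, at 1862 and 1513 against 2207 and 2137 (FDR 0.269).

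Both MEF2 members were lower in each KO library than in each WT library. Mef2d (chromosome 3, 88142395 to 88169167) had 2569 and 2286 normalized counts in KO, against 3295 and 3156 in WT. Its log2 ratio of -0.41 had an unadjusted p of 0.00568 and an FDR of 0.135 in the authors' deposited table, so it did not pass. In limma it was -0.41 ± 0.109 (SE; adjusted p = 0.110, 95% interval -0.67 to -0.16). An antisense gene, 1700113A16Rik, covers 8.87% of the exonic bases of Mef2d and had 9.99 and 12.4 normalized counts in KO against 18.9 and 19.1 in WT, and its part in the Mef2d counts was not tested.

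Mef2c (chromosome 13, 83504034 to 83667079) had the highest counts of the 9, with 10957 and 9510 normalized counts in KO against 11624 and 12249 in WT. The log2 ratio was -0.22 (FDR 0.643), and the limma interval ran from -0.56 to 0.11. Mef2c is also active in endothelium, and all 6 endothelial markers had log2 ratios below 0, with sums of 30281 and 29311 in KO against 36215 and 35327 in WT. Of these only Kdr, a VEGF receptor, fell by the authors' FDR. Their part in the Mef2c level was not tested. Mef2a overlapped between the genotypes, at 3344 and 3372 in KO against 3351 and 3686 in WT, with a log2 ratio of -0.07. Summed per kb of exon, Mef2a, Mef2c and Mef2d reached 1354 and 1217 in KO and 1518 and 1558 in WT, of which Mef2d held 31.7% and 31.4% in KO and 36.3% and 33.9% in WT.

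**Figure D3:**
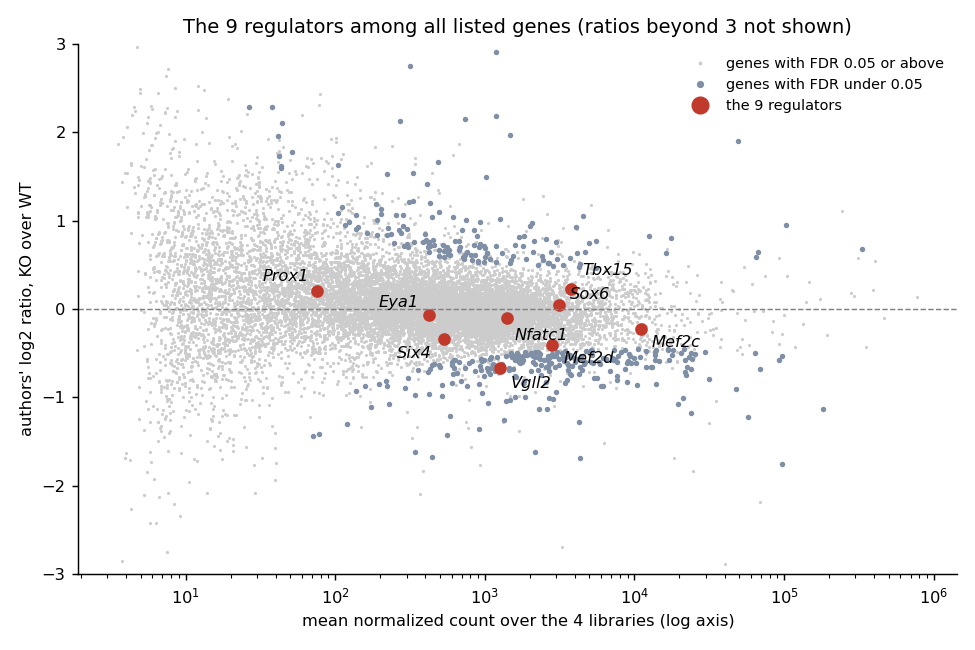
Authors' log2 ratio of KO over WT (y axis) against the mean normalized count over the 4 libraries (log x axis) for the listed genes within the range shown, with the 9 regulators in red. Vgll2 at -0.67 lies among the genes with an FDR under 0.05 and the other 8 lie within the cloud of genes that did not pass.

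Across the 9, KO was wholly below WT for 4 regulators and above for 1, and the genotypes overlapped for the remaining 4. Among 14053 genes with a mean of at least 10, KO was wholly below WT for 26.2% and wholly above for 25.6%, so 51.8% of genes did not overlap, and 5 of 9 is close to that. Between the libraries of the same genotype, the median absolute log2 difference over the 12100 genes whose mean reached 50 was 0.15 in KO and 0.12 in WT. The limma differences of Eya1, Sox6 and Nfatc1 were smaller than both. Those of Prox1 and Tbx15 were no larger than the gap between their own KO libraries, at 0.58 and 0.22 on the log2 scale.

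To compare levels between regulators, normalized counts were divided by the union of each gene's exons in GENCODE M21. In WT the order of levels per kb was Vgll2 (936), Tbx15 (932), Mef2c (760), Mef2d (539), Sox6 (208), Nfatc1 (196), Eya1 (55.6), Six4 (55.1) and Prox1 (8.38). In KO it was Tbx15 (1091), Mef2c (651), Vgll2 (588), Mef2d (406), Sox6 (216), Nfatc1 (182), Eya1 (53.2), Six4 (43.4) and Prox1 (9.62). The neighbours Vgll2 and Tbx15, Sox6 and Nfatc1, and Eya1 and Six4 were not separated over the 4 libraries, while each other pair of neighbours in the WT order was. Vgll2 stood at percentile 89.2 of 13909 genes with a length in KO and at 93.0 in WT, and Prox1 at 13.2 in both. The union counts every annotated exon, used in muscle or not, which lowers the value of a gene with many transcripts such as Mef2c, with 31, more than that of Vgll2, with 2.

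**Figure D4:**
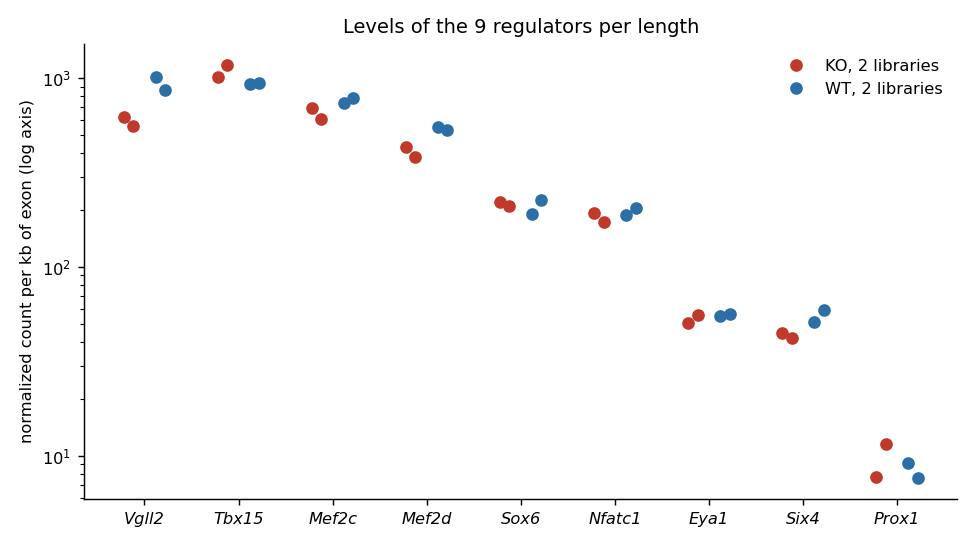
Normalized count per kb of exon (log y axis) of the 9 regulators in 2 KO libraries (red, left in each pair) and 2 WT libraries (blue, right), in the order of the WT means. Vgll2 is near Tbx15 in WT, at 936 and 932, and below it in KO, at 588 and 1091.

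Beside the 9, 90 genes of 6 related lists were looked up and 85 were measured. By the authors' FDR 0 rose and 1 of the 85 fell, beside 2.71% of all genes, with a median log2 ratio of -0.07. Camk2g, a calcium/calmodulin-dependent kinase that can phosphorylate the class IIa HDACs, repressors of MEF2, fell to 4255 and 3998 normalized counts in KO, against 5657 and 5912 in WT (FDR 0.0324 in the authors' deposited table, limma adjusted p = 0.0896). It was the only call among 15 measured genes around MEF2. Of 34 other fibre type regulators looked up and measured, 0 rose and 0 fell, and the lowest p-values were those of a pair of estrogen-related receptors, nuclear receptors that act on oxidative genes. Esrrb had 99.9 and 68.1 normalized counts in KO against 177 and 147 in WT (FDR 0.0541), and Esrra had 1994 and 2072 in KO against 2796 and 2711 in WT (FDR 0.0882). Limma called 0 of the 85, beside 0.889% of all genes. At an unadjusted p under 0.05 it picked 22 of the 85, beside 19.6% of all genes, and the authors' test picked 17, beside 11.1%.

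**Figure D5:**
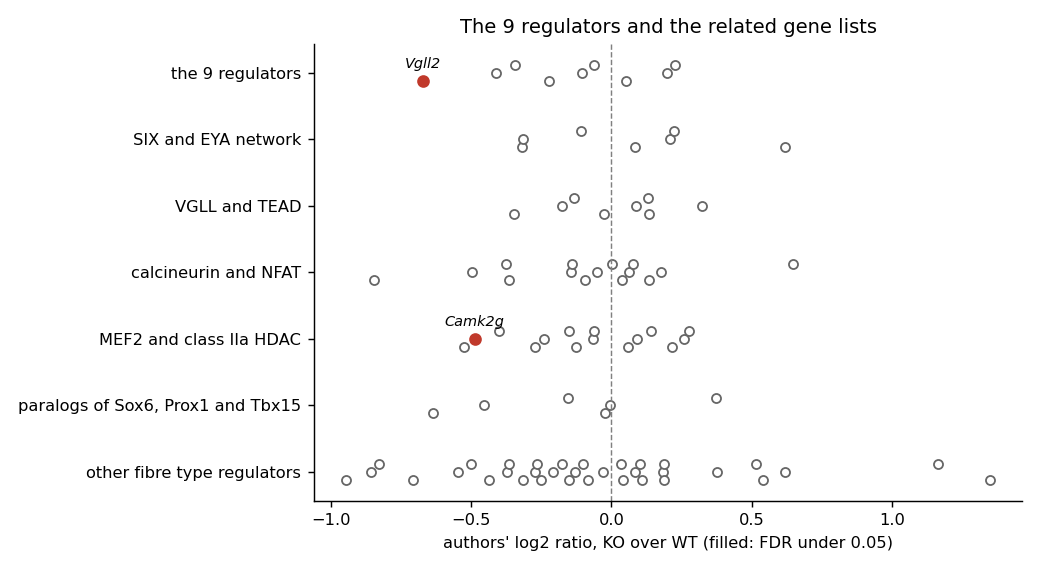
Authors' log2 ratio of KO over WT (x axis) for the 9 regulators (top) and for the measured genes of 6 related lists, 1 point a gene, filled where the FDR is under 0.05. Vgll2 at -0.67 and Camk2g at -0.49 are the filled points.

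Listed genes of fast and slow fibres gave calls in each direction. Whether the regulators act on these genes in this muscle was not tested. Among 15 fast fibre genes, 2 rose (Myh4 and Mybpc2) and 1 fell (Myh1), and of 14 slow fibre genes 0 rose and 3 fell (Mb, Myl3 and Casq2), by the authors' FDR, beside 1.01% of all genes called higher and 1.7% called lower. Limma called 0 of the fast and 2 of the slow genes, beside 0.889% of all genes. At an unadjusted p under 0.05 the authors' test picked 7 of the fast and 5 of the slow genes, beside 11.1% of all genes, and limma picked 7 and 8, beside 19.6%. The fast-type myosin-binding protein gene Mybpc2 had 80663 and 74022 normalized counts in KO against 44149 and 59052 in WT, while Myl3, a slow and ventricular myosin light chain, had 1880 and 1672 against 3704 and 3454. Over the fast list the median log2 ratio was 0.31 and over the slow list it was 0.13. Each call in the slow list was below 0, but 8 of its 14 genes had a log2 ratio above 0. KO was wholly lower than WT for 5 of the 14, and wholly higher for 5 others (Tnnt1, Tnni1, Tnnc1, Tpm3 and Myh6). Over all genes past the filter on low values, KO was wholly lower for 26.2% and wholly higher for 25.6%. None of the 5 higher slow genes passed the authors' FDR. Among them, Tnnc1 had 442 and 228 normalized counts in KO against 155 and 132 in WT (log2 ratio 1.23, FDR 0.498).

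The authors' deposited Ingenuity table of upstream regulators, which the authors filled with genes beyond 0.95 in absolute log ratio, names 1 of the 9 regulators and the MEF2 group. None of the 9 passed that ratio itself. In the authors' deposited table MEF2C had an overlap p of 0.00709. It was listed with 4 targets. Only Plagl1 among them had an FDR under 0.05 (0.00381), and the others were Bglap, Col2a1 and Myog. The MEF2 group was listed with Mb at -1.76, Myh1 at -1.13 and Myog at 1.16, of which Mb and Myh1 had an FDR under 0.05. Its overlap p in the authors' deposited table was 0.0091. Among all 608 listed regulators, 604 had an overlap p under 0.05.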

How the data were processed

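Muscles were frozen, and Trizol RNA was turned into libraries by Illumina's standard procedure, per the labels' protocols. Genome build mm10 is named in the submitters' processing notes. For the aligner, the counting program, its strand setting and the annotation, nothing is given in the sources used here. Per genotype the authors deposited a mean signal (normalized read count), and per gene a p-value with its FDR and a log2 ratio. The authors made this comparison with DESeq, going by the name they gave the table. The deposited Ingenuity table holds an activation score, not used here, and an overlap p-value.

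If counts are scaled by 1 factor per library and averaged, each library adds a whole multiple of its own step to the mean. With 1 step 5% of the 300 lowest KO values and 4.67% of the WT values came out whole, and with 2 steps 100% of both. All 14617 genes had exactly 1 solution per column, at a relative tolerance of 8e-14. The recovered factors were 1.10 and 0.970 in KO and 1.00 and 0.940 in WT, and median-of-ratios factors from the counts equalled them to 3 digits. Which of the 3 labelled mice of a genotype entered is not stated. Libraries of a genotype differed by more than sampling noise (chi-square per degree of freedom 27.3 in KO and 29.9 in WT), but nothing links a library to a mouse, so a p-value measures only the spread among these libraries, which may be technical.

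The planned main result is the authors' FDR under 0.05, described as theirs. limma 3.58.1 (R 4.3.3) was fitted across all genes on log2(normalized count + 1), which understates changes of low genes, for genes with a mean of at least 10, with trend and robust moderation, two-sided, KO minus WT, adjusted by Benjamini-Hochberg over 14053 genes, with 2 residual degrees of freedom. The fit was tested on simulated data first. The members, the gene lists and the tests were chosen with earlier results of these data known. In related lists, genes past the FDR were named, or the 2 with the lowest p-value where none passed, as were paralogs of the members. Myh2, Tnnc1, Tnnt1, Tnni1, Tpm3 and Myh6 were among the genes named outside this rule. Of the genes listed at first, 2 are not reported here and enter no list count. Macrophage markers, 5 measured, summed to 6272 and 4762 in KO and 5698 and 3842 in WT. Exonic lengths came from GENCODE M21 and matched 95.2% of genes by symbol. Alternatives were other scalings, pseudocounts, filters and moderation, voom, leaving out X and Y genes, and leaving out each library.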

Additional observations from a re-analysis of the deposited data

How the results depend on the processing

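Of 135 values of the 9 regulators under limma alternatives, 129 kept their direction and their side of the threshold. Vgll2 passed without KO library 1 (-0.74), with an adjusted p of 0.0456 to 0.210 over its 15 alternatives and a log2 difference of -0.78 to -0.55 over the libraries left out. Uncalled differences crossed 0 for Eya1 and Nfatc1 with totals that leave out the 20 most abundant genes (0.046 and 0.0029), where the median of all genes moved to 0.11, and for Eya1 without KO library 1 (0.0040), Sox6 without WT library 1 (-0.064) and Prox1 without KO library 2 (-0.12). The leave-one-out ranges were -0.13 to 0.0040 for Eya1, -0.064 to 0.17 for Sox6, -0.12 to 0.46 for Prox1 and -0.19 to -0.026 for Nfatc1. The number of regulators called was 1 by the authors and 0 by limma, and 0 to 1 over the libraries left out. Of the 85 related genes the authors called 1, 3 at an FDR under 0.1, and limma 0. Over all genes limma called 125 (60 higher and 65 lower), 206 with those totals (156 and 50), 100 after scaling to total counts (62 and 38), 122 after upper-quartile scaling (71 and 51), 27 without robust moderation (10 and 17), and 11 to 381 with a library left out. Leaving out KO library 1 gave 223, KO library 2 gave 381, WT library 1 gave 11 and WT library 2 gave 67. A lone library in an arm is then assumed to vary like the other genotype. The cause was not tested. No paired analysis was possible because the libraries carry no number that links a KO library to a WT library.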
